A study of Homo sapiens
Mus musculus with 8 samples.

Results

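The genes of the BCL2 family described here are 5 genes in each species: Bcl2, Bcl2l1, Mcl1, Bax and Bcl2l11 of the mouse and BCL2, BCL2L1, MCL1, BAX and BCL2L11 of the human. They are 10 of the 60736 genes of the combined reference (32738 human, 27998 mouse), and were chosen by name. Their levels were measured by 10x Chromium single-cell RNA-seq in 4 lymphocyte cell lines, mixed in equal parts by viable count and captured together. EL4 is a mouse line of CD4 T cells, IVA12 a mouse line of B cells, Jurkat a human line of CD4 T cells and TALL-104 a human line of CD8 T cells, which are smaller than the others and were grown with interleukin 2. The study reports that its TALL-104 cells were harder to culture, with reduced viability and slow growth. All 4 are untreated lines with a medium of their own. Line, medium and species thus cannot be told apart, and values are compared only within a species. The kits were 3′ v3 (4 libraries), 5′ v1 (2 libraries) and 3′ v2 (1 library), and they count messenger RNA from its 3′ or its 5′ end. The study lists 1 cell mixture for 3′ v2, 1 for both 5′ v1 libraries and 2 for 3′ v3, 1 in replicates 1 and 3 and the other in replicates 2 and 4. Kit and cell mixture therefore cannot be told apart, and libraries of 1 mixture share their cells, so that p-values measure only the spread between these libraries.

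Proteins of the BCL2 family set whether the outer membrane of the mitochondrion stays closed. BCL2, BCL-XL (made from BCL2L1) and MCL1 hold the pore-forming protein BAX in check, while BIM (made from BCL2L11) is a BH3-only protein that binds the protective members and sets BAX free. Lymphocytes are known to depend on these proteins: BIM drives the death of T and B cells deprived of cytokines, MCL1 is needed by most lymphocytes and by plasma cells, and its messenger RNA and protein turn over fast. The counts do not separate the splice forms of BCL2L1, MCL1 and BCL2L11, some of which have opposite effects, and say nothing of the proteins.

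Cells were barcodes with at least 1000 unique molecular identifiers (UMIs, 1 per captured molecule) and over 80% of them from 1 species. They were assigned to a line by sums of 3 or 4 marker genes, none a member, and are called EL4-like, IVA12-like, Jurkat-like and TALL-104-like. Of 32377 barcodes with at least 1000 UMIs, 27505 received a line: 10905 EL4-like, 5829 IVA12-like, 8105 Jurkat-like and 2666 TALL-104-like. TALL-104-like cells numbered 41 in 3′ v2, 70 and 30 in 5′ v1, and 243 to 1050 in 3′ v3, with a median of 1929 to 2762 UMIs per cell. The medians of the other lines were 10075 to 31126 UMIs. Total counts per library ran from 24790710 to 251164949 UMIs, and at most 24 cell barcodes were shared by any pair of libraries. Median UMIs from the other species made up 0.921% to 15.3% of a TALL-104-like cell, the highest in 3′ v3 replicate 3, and at most 3.66% in any other line. Levels are given as CPM (counts per 1e6), the UMIs of a gene scaled to the UMIs of the cell line's own species, both summed over the cells of a line in a library.

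Lists of markers that the assignment did not use were checked against the labels. All 6 T cell markers of the EL4 list, Cd3d, Cd3e, Cd3g, Thy1, Lck and Cd28, were higher in EL4-like than in IVA12-like cells in every library. Of 7 B cell markers in the reference, IVA12-like cells carried Jchain, Cd79b and Cd74, but Cd79a, H2-Aa and H2-Ab1 were below 1 CPM in all 7 libraries, so the labelled B cell state lacked several of its defining genes. Of 8 Jurkat markers, 6 or 7 were higher in Jurkat-like cells in each library, with CD1E at 231 to 490 CPM, TAL1 at 41.5 to 92.3 CPM, CD28 at 32.1 to 84.4 CPM and RAG2 at 2.78 to 9.33 CPM, while CD4 stayed at or below 3.74 CPM and RAG1 at or below 2.97 CPM. Of 8 TALL-104 markers, 6 to 8 were higher in TALL-104-like cells in each library. GZMA, PRF1, IL2RB and CCL5 stood at 82.9 CPM or more there, GZMB at 5.22 to 293 CPM, and GNLY (up to 133 CPM) and KLRD1 (up to 32.5 CPM) were at 0 in some libraries, while CD8B stayed at or below 4.72 CPM and reached 2.53 to 9.45 CPM in Jurkat-like cells. The summed EL4 markers stood in IVA12-like cells at 0.334% to 2.10% of their EL4-like level, and the summed IVA12 markers in EL4-like cells at 0.220% to 3.28%, a gauge of the RNA that droplets take up from the other mouse line. The TALL-104 markers stood in Jurkat-like cells at 0.269% to 1.11%. The summed Jurkat markers stood in TALL-104-like cells at 74.0% to 129% of their Jurkat-like level. That list includes the T cell genes CD3D and CD3E, at 677 to 1427 and 382 to 1377 CPM in TALL-104-like cells against 759 to 1682 and 331 to 673 CPM in Jurkat-like cells, so that its sum gives no gauge of Jurkat RNA there. Of the members of the list low in TALL-104-like cells, CD1E stood there at 0 to 15.2 CPM, CD28 at 0 to 9.72 CPM, TAL1 at 0 to 4.75 CPM and RAG2 at 0.

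The first comparison asked how the members differed between the lines of a species. Of the 5 mouse genes, Bcl2 was higher in EL4-like cells, Bcl2l1, Mcl1 and Bcl2l11 were higher in IVA12-like cells, and Bax did not pass the test. Of the 5 human genes, BCL2, BCL2L1, MCL1 and BAX were higher in TALL-104-like than in Jurkat-like cells, and BCL2L11 did not pass. The test was edgeR's quasi-likelihood test on summed counts with the library as a block, at a Benjamini-Hochberg adjusted p below 0.05. Most genes passed it, 77.0% of 11734 mouse genes and 65.2% of 10228 human genes, so the 4 of 5 members called in each species are near the background. How many of all genes had levels that did not overlap between the lines over the 7 libraries was not counted. Lack of overlap, given for members below, is therefore only a description. The median log2 difference was -2.13 over the 5 mouse members (EL4-like minus IVA12-like) beside 0.00 over all mouse genes tested, and 1.94 over the 5 human members (TALL-104-like minus Jurkat-like) beside -0.05 over all human genes tested.

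**Figure D1:**
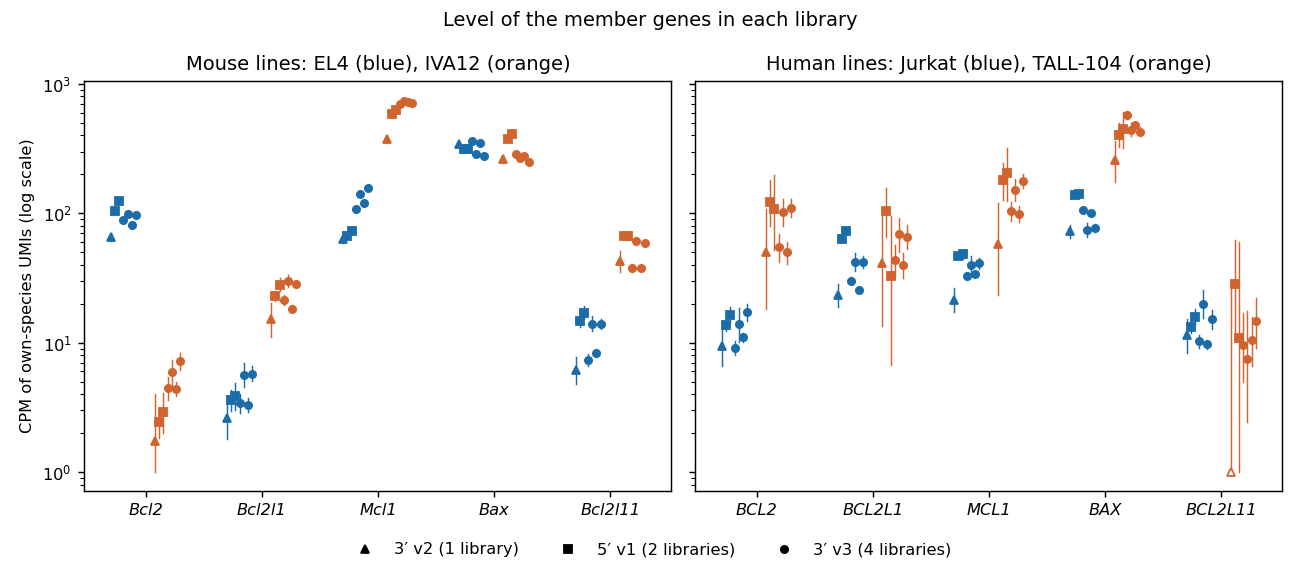
CPM of each member in every library on a log axis, with lines of a species in blue and orange, markers by kit and bars for the 95% counting interval, drawn from 1 CPM upward (the open triangle stands for 0 UMIs). Blue and orange points do not overlap for Bcl2, Bcl2l1, Mcl1, Bcl2l11, BCL2, MCL1 and BAX. How many of all genes part in this way was not counted.

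Bcl2, the founding survival gene of the family, had the largest difference of the members. Its level in EL4-like cells was 66.1 CPM in 3′ v2, 105 and 124 CPM in 5′ v1, and 88.7, 99.5, 80.9 and 97.5 CPM in 3′ v3 replicates 1 to 4. In IVA12-like cells it was 1.73 CPM in 3′ v2, 2.42 and 2.91 CPM in 5′ v1, and 4.43, 5.88, 4.41 and 7.17 CPM in 3′ v3. The lines did not overlap, and within a library EL4-like cells were 13.6 to 43.2 times higher. The fitted log2 difference was 4.59 ± 0.25 (SE, 7 libraries, edgeR adjusted p = 6.55e-08). The Bcl2 level of IVA12-like cells came to 2.32% to 7.36% of the EL4-like level, above the share of the summed EL4 markers in 7 of 7 libraries. Both shares were higher in 3′ v3 than in 5′ v1, and the part of EL4 RNA in the IVA12-like level of Bcl2 was not tested further.

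Human BCL2 was higher in TALL-104-like cells in all 7 libraries. Jurkat-like cells held 9.36 CPM in 3′ v2, 13.6 and 16.4 CPM in 5′ v1, and 9.11, 13.9, 10.98 and 17.2 CPM in 3′ v3. TALL-104-like cells held 49.8 CPM in 3′ v2, 123 and 108 CPM in 5′ v1, and 54.5, 102, 49.9 and 110 CPM in 3′ v3. The lines did not overlap, and the ratio within a library ran from 4.54 to 8.996. The fitted log2 difference was 2.75 ± 0.15 (SE, edgeR adjusted p = 1.86e-14), although the 3′ v2 and 5′ v1 values of TALL-104-like cells rest on 6, 26 and 10 UMIs.

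**Figure D2:**
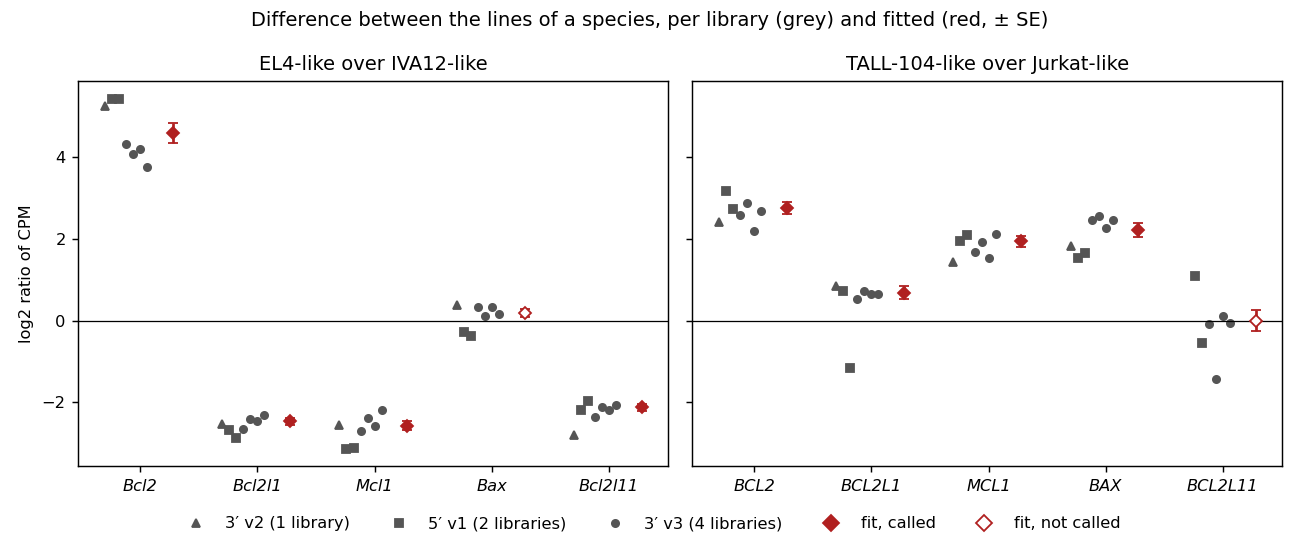
log2 ratio of CPM between the lines of a species for each library (grey, marker by kit) and the fitted difference ± SE (red, filled where the adjusted p was below 0.05). The 7 libraries lie on 1 side of 0 for each member but Bax, BCL2L1 and BCL2L11. BCL2L11 has no point for 3′ v2, where TALL-104-like cells held 0 UMIs. How many of all genes lie on 1 side of 0 in all 7 libraries was not counted.

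Bcl2l1, which encodes BCL-XL and the shorter BCL-XS, was the lowest member in EL4-like cells and higher in IVA12-like cells. EL4-like levels were 2.63 CPM in 3′ v2, 3.58 and 3.85 CPM in 5′ v1, and 3.39, 5.64, 3.31 and 5.74 CPM in 3′ v3. IVA12-like levels were 15.2 CPM in 3′ v2, 23.0 and 28.1 CPM in 5′ v1, and 21.3, 30.0, 18.2 and 28.5 CPM in 3′ v3. The lines did not overlap, IVA12-like cells being 4.96 to 7.30 times higher within a library (fitted log2 difference -2.46 ± 0.09 SE, edgeR adjusted p = 7.81e-09).

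Human BCL2L1 overlapped between the lines. It stood at 23.3 CPM in 3′ v2, 62.7 and 73.1 CPM in 5′ v1, and 30.2, 42.2, 25.4 and 42.1 CPM in 3′ v3 in Jurkat-like cells. TALL-104-like cells held 41.5 CPM in 3′ v2, 104 and 32.5 CPM in 5′ v1, and 43.3, 69.0, 39.9 and 65.9 CPM in 3′ v3. TALL-104-like cells were higher in 6 of 7 libraries; the exception, 5′ v1 replicate 2, rests on 3 UMIs in 30 cells (95% interval 6.71 to 95.03 CPM). The fitted log2 difference of 0.68 ± 0.16 (SE) passed the test (edgeR adjusted p = 0.000652). It also passed in the 3′ v3 libraries alone (0.77, edgeR adjusted p = 0.00018, 66.3% of genes called), but not without the library block (log2 difference 0.51, edgeR adjusted p = 0.108) nor in the 5′ v1 libraries alone (0.27, edgeR adjusted p = 0.576, 28.2% of genes called).

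Mcl1 was the most abundant member in IVA12-like cells in 7 of 7 libraries. There it reached 373 CPM in 3′ v2, 581 and 633 CPM in 5′ v1, and 703, 740, 724 and 710 CPM in 3′ v3. In EL4-like cells it was 63.3 CPM in 3′ v2, 66.2 and 72.7 CPM in 5′ v1, and 108, 141, 121 and 156 CPM in 3′ v3. The lines did not overlap, IVA12-like cells being 4.56 to 8.78 times higher within a library (fitted log2 difference -2.57 ± 0.11 SE, edgeR adjusted p = 2.12e-08).

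Human MCL1 was higher in TALL-104-like cells in all 7 libraries. Jurkat-like cells held 21.5 CPM in 3′ v2, 46.9 and 48.1 CPM in 5′ v1, and 32.6, 39.8, 34.1 and 40.98 CPM in 3′ v3. TALL-104-like cells held 58.1 CPM in 3′ v2, 179 and 206 CPM in 5′ v1, and 103, 152, 99.3 and 178 CPM in 3′ v3. No TALL-104-like library fell within the Jurkat-like range, and the ratio within a library ran from 2.70 to 4.35 (fitted log2 difference 1.94 ± 0.14 SE, edgeR adjusted p = 6.17e-12).

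Bax, the pore-forming effector, was the most abundant member in EL4-like, Jurkat-like and TALL-104-like cells in 7 of 7 libraries each. EL4-like cells held 340 CPM in 3′ v2, 313 and 315 CPM in 5′ v1, and 363, 287, 347 and 277 CPM in 3′ v3. IVA12-like cells held 262 CPM in 3′ v2, 378 and 411 CPM in 5′ v1, and 289, 268, 275 and 248 CPM in 3′ v3. The mouse lines overlapped, EL4-like cells being higher in the 5 libraries of the 3′ kits and lower in both 5′ v1 libraries. The fitted log2 difference of 0.19 ± 0.10 (SE) did not pass (edgeR adjusted p = 0.121). Within 3′ v3 alone, where 79.2% of genes were called, it was 0.29 and passed (edgeR adjusted p = 0.00452). Within 5′ v1 alone, where 85.1% were, it was -0.12 (edgeR adjusted p = 0.0876), and without 5′ v1 replicate 2 it was 0.25 and passed (edgeR adjusted p = 0.0382).

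Human BAX differed more. Jurkat-like cells held 72.8 CPM in 3′ v2, 140 and 140 CPM in 5′ v1, and 105, 74.6, 100.3 and 77.5 CPM in 3′ v3. TALL-104-like cells held 257 CPM in 3′ v2, 406 and 444 CPM in 5′ v1, and 577, 443, 479 and 428 CPM in 3′ v3. The lines did not overlap, TALL-104-like cells being 2.91 to 5.93 times higher (fitted log2 difference 2.22 ± 0.18 SE, edgeR adjusted p = 3.89e-11).

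Bcl2l11, which encodes the killer protein BIM, was higher in IVA12-like cells together with Mcl1 and Bcl2l1. EL4-like cells held 6.11 CPM in 3′ v2, 14.6 and 17.1 CPM in 5′ v1, and 7.37, 14.01, 8.31 and 13.96 CPM in 3′ v3. IVA12-like cells held 42.4 CPM in 3′ v2, 66.5 and 66.9 CPM in 5′ v1, and 37.7, 61.0, 37.7 and 58.5 CPM in 3′ v3. The lines did not overlap, IVA12-like cells being 3.92 to 6.95 times higher (fitted log2 difference -2.13 ± 0.10 SE, edgeR adjusted p = 2.41e-08).

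Human BCL2L11 was low in both lines and could not be told apart between them at this depth. Jurkat-like cells held 11.4 CPM in 3′ v2, 13.3 and 15.8 CPM in 5′ v1, and 10.2, 20.1, 9.72 and 15.2 CPM in 3′ v3. TALL-104-like cells had 0 of 120565 UMIs in 3′ v2, which allows up to 24.9 CPM, then 28.3 and 10.8 CPM in 5′ v1, and 9.62, 7.51, 10.4 and 14.6 CPM in 3′ v3. These values rest on 0 to 22 UMIs per library in TALL-104-like cells, and they lie on both sides of the Jurkat-like levels (fitted log2 difference 0.00 ± 0.26 SE, edgeR adjusted p = 0.995). Fewer molecules captured from a small cell and fewer molecules in it cannot be told apart.

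Within each line the members kept much the same order. UMI counts do not depend on transcript length in the way read counts do, but each kit captures each end with its own efficiency, so the order between genes is one of CPM within a kit. In 3′ v3 EL4-like cells it was Bax (318 ± 42.4 CPM, mean ± SD, n = 4), Mcl1 (131 ± 21.3), Bcl2 (91.7 ± 8.54), Bcl2l11 (10.9 ± 3.57) and Bcl2l1 (4.52 ± 1.35), with no neighbours overlapping. Mcl1 stood above Bcl2 in the 4 libraries of 3′ v3 only, and below it in the other 3. In IVA12-like cells the order was Mcl1 (719 ± 16.4 CPM), Bax (270 ± 17.1), Bcl2l11 (48.7 ± 12.8), Bcl2l1 (24.5 ± 5.66) and Bcl2 (5.47 ± 1.33), in all 7 libraries.

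In Jurkat-like cells of 3′ v3 the order was BAX (89.4 ± 15.6 CPM, mean ± SD, n = 4), MCL1 (36.9 ± 4.15), BCL2L1 (34.9 ± 8.52), BCL2L11 (13.8 ± 4.84) and BCL2 (12.8 ± 3.52). The neighbours MCL1 and BCL2L1 overlapped, as did BCL2L11 and BCL2, and MCL1 exceeded BCL2L1 in 2 of 7 libraries. In TALL-104-like cells it was BAX (482 ± 67.4 CPM), MCL1 (133 ± 38.4), BCL2 (79.0 ± 31.2), BCL2L1 (54.6 ± 15.1) and BCL2L11 (10.5 ± 2.96). MCL1 overlapped with BCL2 and BCL2 with BCL2L1 across libraries, but in all 7 libraries each member lay above the next.

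The protective messages were made up differently in each line. Of the summed UMIs of Bcl2, Bcl2l1 and Mcl1, Mcl1 held 95.2% to 97.0% in IVA12-like cells over the 7 libraries. In EL4-like cells Mcl1 held 36.3% to 60.1% and Bcl2 37.7% to 61.8%, with 2.29% at most for Bcl2l1. In Jurkat-like cells BCL2L1 held 36.004% to 53.1%, MCL1 35.0% to 48.4% and BCL2 11.1% to 17.3%. In TALL-104-like cells MCL1 held 38.9% to 59.4%, BCL2 26.4% to 33.3% and BCL2L1 9.38% to 27.8%. Between the mouse lines the Mcl1 share was thus higher in IVA12-like cells without overlap, and between the human lines the BCL2L1 share in Jurkat-like cells. The sum of the protective messages was 2.78 ± 0.21 times the Bax count in IVA12-like cells of 3′ v3 (mean ± SD, n = 4), 1.61 ± 0.0083 times in the 5′ v1 libraries (n = 2) and 1.49 times in the single library of 3′ v2. EL4-like cells had ratios of 0.39 in 3′ v2, 0.60 ± 0.06 in 5′ v1 and 0.73 ± 0.19 in 3′ v3. Most genes split by mixture in 3′ v3, as given below, and the 4 lines of a library were captured together. Beside that background, the ratio also differed by mixture in all 4 lines. It stood at 0.55 and 0.59 in replicates 1 and 3 against 0.86 and 0.93 in replicates 2 and 4 in EL4-like cells, and at 2.52 and 2.71 against 2.89 and 3.0045 in IVA12-like cells. It stood at 0.68 and 0.70 in replicates 1 and 3 against 1.28 and 1.29 in replicates 2 and 4 in Jurkat-like cells, and at 0.35 and 0.39 against 0.73 and 0.83 in TALL-104-like cells. In 5′ v1 it was 0.93 ± 0.07 in Jurkat-like and 0.89 ± 0.16 in TALL-104-like cells, and in 3′ v2 0.74 and 0.58. The ranges of the human lines overlapped across libraries, but within a library the ratio was higher in Jurkat-like cells in each of the 4 libraries of 3′ v3, and in the other 3 except 5′ v1 replicate 1. The 5 members together came to 1068 ± 24.9 CPM in IVA12-like, 557 ± 10.0 in EL4-like, 759 ± 54.6 in TALL-104-like and 188 ± 5.39 in Jurkat-like cells of 3′ v3. In 5′ v1 the sums were 1096 ± 64.0, 517 ± 21.3, 821 ± 27.01 and 285 ± 12.4 CPM (n = 2) in the same order, and in 3′ v2 they were 695, 479, 406 and 138 CPM.

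**Figure D3:**
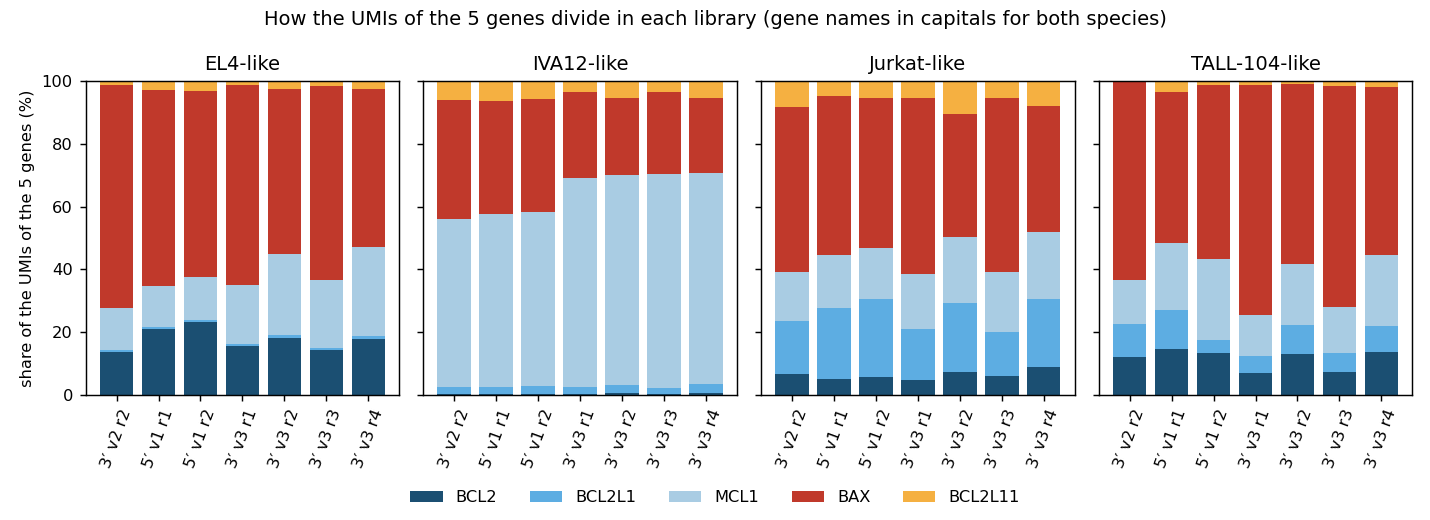
Share in percent of the summed UMIs of the 5 members held by each, in every library (r = replicate) of each line, with mouse genes under the human names. Mcl1 (pale blue) fills 53.7% to 68.3% of each IVA12-like bar, while Bax/BAX (red) is the largest part in the other lines.

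The share of cells with at least 1 UMI of a gene followed both level and depth. Bax was found in 77.4% to 96.2% of EL4-like cells and Mcl1 in 90.4% to 99.0% of IVA12-like cells over the 7 libraries, beside 1.35% to 16.4% and 0.300% to 26.0% of human cells, which cannot express these mouse genes. Bcl2 was found in 56.1% to 87.1% of EL4-like and 3.01% to 15.8% of IVA12-like cells. The same gene had a UMI in 0.136% to 2.19% of the human cells, at median depths of 4581 to 18188 UMIs, against 10896 to 31126 in IVA12-like cells. With each cell thinned to 1000 UMIs the share for Bcl2 was 6.40% to 12.1% in EL4-like, 0.168% to 0.732% in IVA12-like and 0.00603% to 0.180% in human cells.

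Of the human lines, Jurkat-like cells had a median of 10075 to 18522 UMIs and TALL-104-like cells of 1929 to 2762. After thinning, the shares of BCL2, MCL1 and BAX did not overlap between these lines. How many of all human genes part in this way was not counted. Between the lines 65.2% of the human genes tested were called, so the lack of overlap is only a description. BAX had a UMI in 46.2% to 81.5% of Jurkat-like and 46.3% to 68.6% of TALL-104-like cells, and after thinning in 6.80% to 12.7% and 24.1% to 40.97%. MCL1 had a UMI in 23.5% to 54.0% of Jurkat-like and 17.1% to 43.3% of TALL-104-like cells, and after thinning in 2.25% to 4.76% and 7.40% to 18.5%. In mouse cells BAX had a UMI in at most 4.99% and MCL1 in at most 2.10% without thinning. After thinning, as in CPM, TALL-104-like cells exceeded Jurkat-like cells for both genes without overlap, as they did for BCL2 (4.21% to 11.2% against 0.878% to 1.77%). The thinned shares overlapped for BCL2L1, at 2.85% to 8.88% in TALL-104-like and 2.25% to 6.98% in Jurkat-like cells, and for BCL2L11, at 0 to 2.54% and 0.949% to 1.80%.

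Libraries of 3′ v3 fell apart by cell mixture for most members. In replicates 2 and 4, from 1 mixture, 14 of the 20 pairs of member and line were higher without overlap than in replicates 1 and 3, from the other, 4 were lower and 2 overlapped. Many genes split in this way. Among genes with at least 40 UMIs over the 4 libraries, 58.4% were higher and 22.3% lower in EL4-like cells, 52.8% and 30.3% in IVA12-like, 56.9% and 26.2% in Jurkat-like, and 50.7% and 19.3% in TALL-104-like cells. A split in either direction is thus the background and not particular to the members.

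The 4 lines of a library were captured together, so their values are not independent. Bcl2l1 and BCL2L1 were higher in replicates 2 and 4 in all 4 lines, by log2 ratios of means of 0.57 to 0.76, and Bcl2 and BCL2 by 0.22 to 1.02. Bax and BAX were lower in all 4, by log2 ratios of -0.13 to -0.43. Bcl2l11 was higher by 0.84 in EL4-like and 0.67 in IVA12-like cells and BCL2L11 by 0.82 in Jurkat-like cells, while TALL-104-like cells overlapped (0.14). Mcl1 and MCL1 were higher by 0.38 in EL4-like, 0.28 in Jurkat-like and 0.70 in TALL-104-like cells, and overlapped in IVA12-like cells (0.02).

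Mitochondrial shares moved with the mixture. Their median was 10.2% and 10.5% in Jurkat-like cells of replicates 2 and 4 against 6.34% and 4.88% in replicates 1 and 3. In EL4-like cells it was 6.52% and 6.78% against 5.46% and 3.87%. With cells over 10% left out, a choice made after seeing the split, 19 of the 20 log2 ratios kept their sign, BAX in Jurkat-like cells going from -0.43 to -0.48 and BCL2 in TALL-104-like cells from 1.02 to 0.99. The exception was BCL2L11 in TALL-104-like cells, at -0.45.

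**Figure D4:**
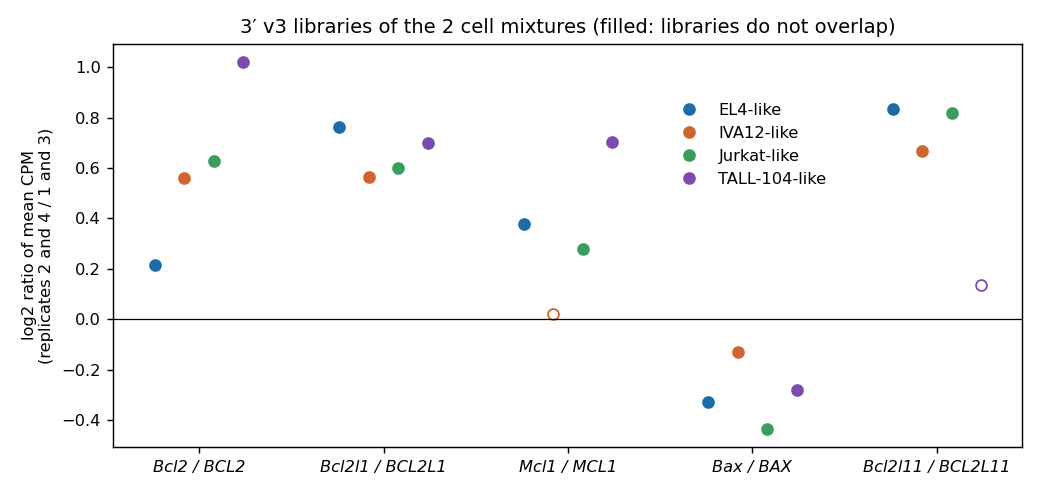
log2 ratio of the mean CPM of 3′ v3 replicates 2 and 4 to that of replicates 1 and 3 for each member and line, filled where the libraries did not overlap. Bax/BAX lies below 0 in all 4 lines and every point of the other members lies above it, 14 of them filled.

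The next comparison asked how the kits differed, 4 libraries of 3′ v3 against 2 of 5′ v1, within each line and again by edgeR's quasi-likelihood test. In EL4-like cells Mcl1 was higher in 3′ v3 by a log2 difference of 0.84 ± 0.14 (SE, edgeR adjusted p = 0.00465) and Bcl2l11 was lower by -0.64 ± 0.20 (edgeR adjusted p = 0.0425), 2 of 5 members where 36.7% of all genes were called. In IVA12-like cells Bcl2 was higher in 3′ v3 by 1.06 ± 0.23 (edgeR adjusted p = 0.0332), 1 of 5 members where 9.66% of genes were called. In Jurkat-like cells BCL2L1 was lower in 3′ v3 by -1.03 ± 0.18 (edgeR adjusted p = 0.0122), 1 of 5 where 17.5% were called. No member was called in TALL-104-like cells, where 4.32% of genes were. There 0 of 5 had an unadjusted p below 0.05 by edgeR, DESeq2 called none of the 4 for which it gave an adjusted p, and the 5′ v1 sums rest on 70 and 30 cells. In the other lines DESeq2 also called Bcl2 in EL4-like cells (-0.39, DESeq2 adjusted p = 0.0332) and MCL1 in Jurkat-like cells (-0.40, DESeq2 adjusted p = 0.0498). The shares of all genes given here are those of edgeR, so the DESeq2 calls have no background beside them.

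Against 1 mixture of 3′ v3 alone, replicates 1 and 3 or replicates 2 and 4, far more of all genes were called: 66.4% and 70.8% in EL4-like, 60.2% and 66.9% in IVA12-like, 59.8% and 72.9% in Jurkat-like, and 17.9% and 34.6% in TALL-104-like cells. The members called in these settings are to be read against these shares. In EL4-like cells Bcl2 (-0.31 and -0.50), Mcl1 (0.84 and 0.81) and Bcl2l11 (-0.88 and -0.46) were called against both. Bax was called against both in opposite directions, higher in 3′ v3 by 0.30 with replicates 1 and 3 and lower by -0.44 with replicates 2 and 4 (edgeR adjusted p = 0.0271 and 0.000518). In IVA12-like cells Bcl2 (0.93 and 1.27), Mcl1 (0.40 and 0.16), Bax (-0.31 and -0.70) and Bcl2l11 (-0.65 and -0.26) were called against both. In Jurkat-like cells BCL2L1 (-1.13 and -0.86), MCL1 (-0.36 and -0.41) and BAX (-0.29 and -1.05) were called against both, and BCL2 (-0.40) and BCL2L11 (-0.38) with replicates 1 and 3. In TALL-104-like cells BCL2 (-0.95, edgeR adjusted p = 0.0224) and BAX (0.57, edgeR adjusted p = 0.0396) were called with replicates 1 and 3, and with replicates 2 and 4 the 4 members tested had edgeR adjusted p = 0.423 to 0.891.

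The levels behind the calls with all 4 libraries were as follows. Mcl1 in EL4-like cells stood at 66.2 and 72.7 CPM in 5′ v1, below each of the 4 libraries of 3′ v3. BCL2L1 in Jurkat-like cells stood at 62.7 and 73.1 CPM in 5′ v1, above each 3′ v3 library. Leaving out either 5′ v1 library leaves 1 library of that kit, with a spread estimated from 3′ v3 alone, and none of the 4 calls then passed, while the log2 differences stayed at 0.81 to 0.88 for Mcl1 and -0.56 to -0.72 for Bcl2l11 in EL4-like, 0.95 to 1.17 for Bcl2 in IVA12-like and -0.92 to -1.09 for BCL2L1 in Jurkat-like cells over all libraries left out in turn. Bcl2l11 in EL4-like cells also lost its call without 3′ v3 replicate 1 or replicate 3, or without cells of a mitochondrial share over 10% (-0.59, edgeR adjusted p = 0.0564), and Bcl2 in IVA12-like cells without 3′ v3 replicate 2 or replicate 4.

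**Figure D5:**
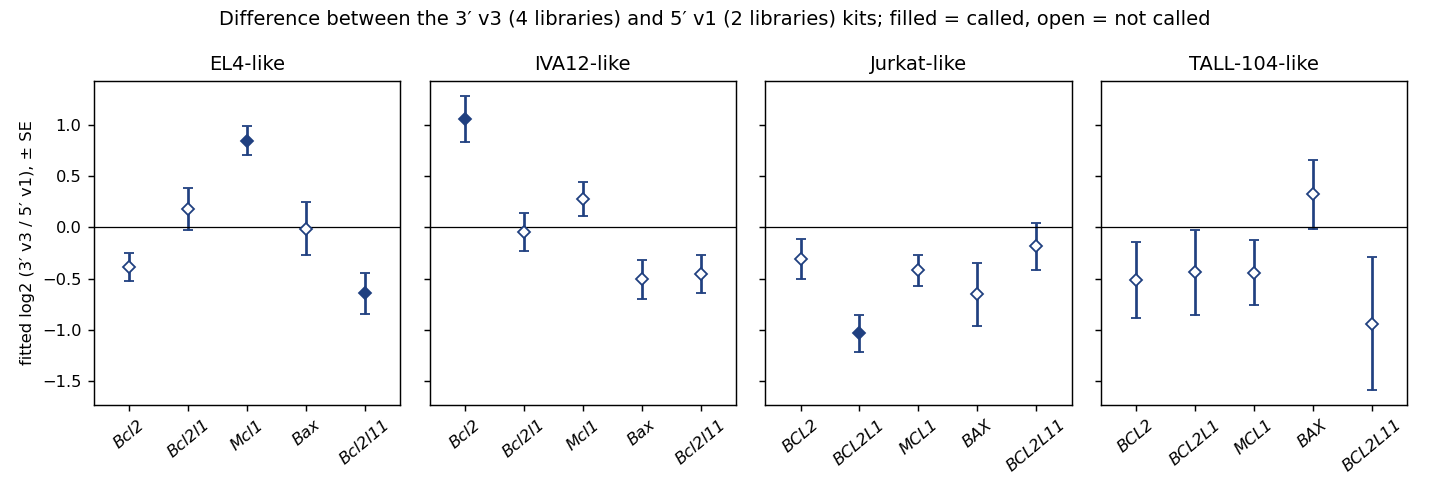
Fitted log2 difference of 3′ v3 (4 libraries) from 5′ v1 (2 libraries) ± SE for each member in each line, filled where the adjusted p was below 0.05. Filled points are Mcl1 and Bcl2l11 in EL4-like, Bcl2 in IVA12-like and BCL2L1 in Jurkat-like cells.

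Whether the difference between lines depended on the kit was tested as an interaction, the log2 line difference in 3′ v3 minus that in 5′ v1. Of the 5 mouse members 3 were called, where 30.6% of all mouse genes were. The difference of EL4-like from IVA12-like cells was smaller in 3′ v3 for Bcl2, by -1.46 ± 0.21 (SE, edgeR adjusted p = 0.000808). It was larger on the log2 scale for Mcl1 by 0.54 ± 0.13, that is, less far below 0 (edgeR adjusted p = 0.0113), and for Bax by 0.44 ± 0.13 (edgeR adjusted p = 0.0266). Mcl1 and Bax lost their calls without either 5′ v1 library, which leaves 1 library of that kit (log2 0.52 to 0.53 and 0.36 to 0.49), and Bax also without 3′ v3 replicate 1 or replicate 3 (0.38 and 0.35). None of the 5 human members was called, where 1.32% of all human genes were, and 1 of the 5, BAX, had an unadjusted p below 0.05 by edgeR. For BAX the difference of TALL-104-like from Jurkat-like cells was larger in 3′ v3 by 0.89 ± 0.23, which missed the threshold with edgeR (edgeR adjusted p = 0.0526) and passed it with DESeq2 (DESeq2 adjusted p = 0.0135), against each 3′ v3 mixture alone (4.52% and 10.3% of genes called) and on leaving out any library of 3′ v3, but not on leaving out either library of 5′ v1. It also passed with no filter (0.98, edgeR adjusted p = 0.0300). The same held with a mitochondrial share of at most 10% (1.08, edgeR adjusted p = 0.0207) and with at least 2000 UMIs per cell (1.06, edgeR adjusted p = 0.0167).

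The wider family was followed with 21 further mouse and 18 further human genes. Of 13 mouse genes with enough counts, 8 were higher in EL4-like and 4 in IVA12-like cells, with a median log2 difference of 0.61, where 77.0% of all mouse genes were called. The largest differences were those of the BH3-only genes Bik and Pmaip1, the latter encoding NOXA, which binds MCL1. Pmaip1 had a median of 38.4 CPM in the IVA12-like sums and of 0.73 CPM in the EL4-like ones (log2 difference -5.32 ± 0.24 SE, edgeR adjusted p = 2.65e-08), and Bik of 11.3 CPM in IVA12-like and 0.18 CPM in EL4-like cells (-5.39 ± 0.41 SE, edgeR adjusted p = 6.61e-07). These EL4-like levels came to at most 4.37% and 6.16% of the IVA12-like ones, beside 3.28% at most for the summed IVA12 markers. Within a library the share was above that of the markers in 7 of 7 libraries for Pmaip1 and in 5 of 7 for Bik. The marker sum is mostly Jchain, at 1359 to 4394 CPM in IVA12-like cells. Another marker, Cd79b, reached 11.8 CPM in EL4-like cells beside 216 to 353 CPM in IVA12-like cells. The part of IVA12 RNA in the EL4-like levels of Pmaip1 and Bik was not tested. Of the other BH3-only genes, Bmf (log2 difference -1.37) and Bbc3 (-0.97) were higher in IVA12-like cells, and Bid (0.61) and Bad (0.87) in EL4-like cells. Also higher in EL4-like cells were Bak1, the other pore-forming effector (median 74.1 against 24.6 CPM, 1.59 ± 0.07 SE), the mitophagy receptor Bnip3 (32.5 against 5.55 CPM, 2.68 ± 0.29 SE) and Bcl2l14 (2.52 ± 0.55 SE, at or below 1.37 CPM in every library, and in 5′ v1 at 0.44 and 0.49 CPM against 0.25 and 0.45 CPM). The near-identical copies Bcl2a1a to Bcl2a1d, whose shared reads counting can leave out, held 2 UMIs in all, so their level is uncertain.

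Of 11 human family genes with enough counts, 3 were higher and 6 lower in TALL-104-like than in Jurkat-like cells, with a median log2 difference of -0.51, where 65.2% of all human genes were called. BCL2A1, a further protective member, had a median of 31.5 CPM in TALL-104-like and 0.47 CPM in Jurkat-like cells (log2 difference 6.21 ± 0.30 SE, edgeR adjusted p = 1.62e-15). BBC3, which encodes the BH3-only protein PUMA, had 39.3 and 5.58 CPM (2.76 ± 0.29 SE, edgeR adjusted p = 4.83e-09). Lower in TALL-104-like cells were BIK (3.002 against 30.2 CPM, log2 difference -3.12), BNIP3 (11.2 against 50.5 CPM, -1.77), BID (82.9 against 254 CPM, -1.44) and BCL2L12 (29.2 against 78.9 CPM, -1.30). The effector gene BAK1 (0.61) was also higher in TALL-104-like cells, PMAIP1 (-0.72) and BNIP3L (-0.51) were lower, and BAD (0.05) was not called. BNIP3L was lower in the 3′ kits but not in 5′ v1, at 85.0 and 86.7 CPM against 82.8 and 80.0 CPM in Jurkat-like cells.

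A list of 12 caspases, caspase regulators and mitochondrial genes in each species, called downstream genes here, had enough counts. The name is that of the list, and not each of its genes acts only after the mitochondrion. In the mouse 7 were higher in EL4-like and 4 in IVA12-like cells (median log2 difference 0.38), and in the human 7 were higher and 2 lower in TALL-104-like cells (median 0.50), again beside 77.0% of all mouse and 65.2% of all human genes called. EL4-like cells had more of Apaf1, the scaffold of the apoptosome (log2 difference 1.44), and of the caspase inhibitor Xiap (1.46). IVA12-like cells had more Birc3 (-1.74) and Htra2, a mitochondrial protease (-1.26). TALL-104-like cells had more BIRC3 (log2 difference 1.11), APAF1 (0.93) and CASP9 (0.80), and less HTRA2 (-0.99) and CYCS, which encodes cytochrome c (-0.78). BIRC3 was higher there in 3′ v3 only (34.5 to 103.6 against 17.5 to 35.9 CPM in Jurkat-like cells). It was lower in 5′ v1 (18.9 and 10.8 against 22.0 and 23.4 CPM) and alike in 3′ v2 (8.29 against 8.34 CPM). In TALL-104-like cells CASP9 rests on 39 UMIs in all and APAF1 on 122, with APAF1 at 0 in 5′ v1 replicate 2. CASP9 was lower there than in Jurkat-like cells in 3′ v2 (0 against 3.79 CPM) and 3′ v3 replicate 3 (4.27 against 4.72 CPM). It was higher in the other libraries.

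Between kits the shares called over all genes were 36.7% in EL4-like, 9.66% in IVA12-like, 17.5% in Jurkat-like and 4.32% in TALL-104-like cells. In EL4-like cells 3 of 13 family genes and 1 of 12 downstream genes were called: Bbc3 was lower in 3′ v3 (6.87 ± 0.53 against 25.6 ± 4.53 CPM, mean ± SD, n = 4 and 2, log2 difference -1.93), Bcl2l13 was lower (-0.76), and Bik (2.95) and Casp6 (1.36) were higher, both at or below 2.25 CPM in every library. In IVA12-like cells Bbc3 (-1.17) and Bmf (-1.15) were lower in 3′ v3, 2 of 12 family genes and 0 of 12 downstream genes, of which 2 had an unadjusted p below 0.05 by edgeR. In Jurkat-like cells BNIP3 (-1.39) and BCL2L13 (-0.59) were lower, 2 of 16, and of the 12 downstream genes only DIABLO was called, at 5.96 ± 1.26 CPM in 3′ v3 and 35.2 ± 1.22 CPM in 5′ v1 (log2 difference -2.64 ± 0.17 SE, edgeR adjusted p = 0.000796). In the mouse interaction 5 of 13 family genes were called beside 30.6% of all mouse genes, Bik (3.71), Bcl2l14 (2.83), Bbc3 (-0.79), Bcl2l13 (-0.57) and Bnip3 (-1.31). In EL4-like cells Bik stood at 0.063 and 0 CPM in 5′ v1 and at 0.18 to 0.45 CPM in 3′ v3. The summed IVA12 markers stood there at 0.401% and 0.220% of their IVA12-like level in 5′ v1, and at 1.36% to 3.28% in 3′ v3. The part of IVA12 RNA in the kit and interaction results of Bik was not tested. None of 12 downstream mouse genes was called, 3 of them having an unadjusted p below 0.05 by edgeR, nor any of 12 family and 12 downstream human genes, where 4 and 2 did. None of 11 family and 12 downstream genes was called between kits in TALL-104-like cells, where 4 and 3 had an unadjusted p below 0.05 by edgeR. The share of all genes with an unadjusted p below 0.05 is not given here. Counts at that threshold, also those for the members above, therefore have no background and are not read as a result. The DESeq2 calls of these lists were not examined.

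The genes most like each member were ranked by Pearson's r of log2(CPM + 1) over the 14 sums of 2 lines and 7 libraries of a species, as a description. The sums share libraries and depth and form a cluster for each line, so r is high for any gene with a strong line difference. Bcl2 had 1352 mouse genes above r = 0.9 and was most like A930003A15Rik, Pstpip1 and Ptprc (r = 0.995 each). Bcl2l1 was most like Abca3, Itsn1 and Btg2, Mcl1 most like Recql, Gaa and Ppan, and Bcl2l11 most like Creb3l2, Dnajc2 and Adpgk, at r of 0.990 to 0.997. Bax had only 2 such genes, Tomm22, which encodes a receptor for import into mitochondria (r = 0.93), and Tg (0.90), followed by D8Ertd738e (0.88). In the human, BCL2 was most like GNPTAB, KLF6 and SMAP1 (0.99 each), MCL1 most like PRMT2, IVNS1ABP and NR3C1 (0.98 to 0.99), and BAX most like DOK2, GYG1 and PITPNC1 (0.98 each). BCL2L1 was most like NDEL1 (0.91), UBE4B (0.89) and LIN54 (0.88), with 1 gene above 0.9. BCL2L11 was most like C17orf70, TNFAIP1 and EPB41L4A-AS1 (0.95 to 0.98). It was not called between the lines, but its TALL-104-like sum of 3′ v2 was 0 CPM, where all its other sums were at least 7.51 CPM. The part of that 1 sum in the r of BCL2L11 was not tested.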

How the data were processed

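The authors deposited raw UMI counts per gene and barcode for each library. Before counting, the authors reduced the reads with seqtk to about equal depth of the RNA-rich cells in each library, which removes part of the molecules of deeper libraries. Reads were then counted with Cell Ranger 3.0.2 against the combined hg19 and mm10 reference of release 1.2.0. Every barcode was listed and libraries were not pooled. Of the 8 labelled libraries 7 were used, and the first of 3′ v2 was not analysed here. Libraries were grouped by the kit their titles name, and replicate numbers follow accession order and pair nothing. The mixtures come from the study's sample list.

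The members and gene lists were chosen by name, with earlier results of these data known. Barcodes with at least 1000 UMIs, over 80% from 1 species, were called EL4-like where Lgals1, S100a6 and Perp together had at least 5 times the UMIs of Epcam, Cd24a, Ctss and Ckap4, and IVA12-like in the reverse case. Human cells were TALL-104-like where NKG7, CST7 and CD8A held at least 0.1% of UMIs and Jurkat-like where they held under 0.02%. The line names were rebuilt by this rule, which also drops mixed-species doublets unless over 80% of their UMIs come from 1 species. A doublet of a TALL-104 cell with a mouse cell of far more UMIs can therefore stay in. No doublet caller was run within a species. In 3′ v3 replicate 3, 75.9% of barcodes with at least 1000 UMIs received a line, and in the other libraries 86.8% to 97.7%.

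UMIs were summed per library and line. Sums were compared with edgeR 4.0.16 (R 4.3.3; filterByExpr, TMM, quasi-likelihood test, Benjamini-Hochberg adjustment over all genes tested), with the library as a block between lines, since the lines were captured together. Log2 differences carry SEs derived from the F statistic. DESeq2 1.42.0, other normalization factors, no filter, stricter cell choices, single kits or mixtures and leaving out each library were alternatives. Levels and shares were not tested. Counting intervals are exact Poisson or binomial (Clopper-Pearson) at 95%, a count of 0 is given with the limit that 3 counts set, and both cover counting error only. Thinned shares are expected shares at 1000 UMIs per cell. Named were all members, the 6 further family and 6 downstream genes with the largest called difference between lines (3 between kits), and the 3 genes most like each member, except that some genes are not reported here. Likeness was computed on log2(CPM + 1).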

Additional observations from a re-analysis of the deposited data

Results flagged for a closer look

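The difference between EL4-like and IVA12-like cells was not the same in 3′ v3 and 5′ v1 for 3 of the 5 mouse members. The test was the interaction term of edgeR's quasi-likelihood test, which called 30.6% of all mouse genes tested. For Bcl2 the log2 difference was smaller in 3′ v3, by -1.46 (edgeR adjusted p = 0.000808), with ratios within a library of 13.6 to 43.2 in all. The IVA12-like level of Bcl2 was 2.42 and 2.91 CPM in 5′ v1 and 4.41 to 7.17 CPM in 3′ v3, and the summed EL4 markers in IVA12-like cells stood at 0.334% and 0.366% of their EL4-like level in 5′ v1 and at 1.02% to 2.10% in 3′ v3. Their part in the Bcl2 result was not tested. For Mcl1 the log2 difference was higher in 3′ v3 by 0.54 (edgeR adjusted p = 0.0113), with EL4-like levels of 66.2 and 72.7 CPM in 5′ v1 against 108 to 156 CPM in 3′ v3. The summed IVA12 markers in EL4-like cells stood at 0.401% and 0.220% of their IVA12-like level in 5′ v1, and at 1.36% to 3.28% in 3′ v3. The part of IVA12 RNA in the Mcl1 result was not tested. For Bax the log2 difference was higher in 3′ v3 by 0.44 (edgeR adjusted p = 0.0266), EL4-like cells lying below IVA12-like cells in both 5′ v1 libraries and above them in the 4 of 3′ v3. Kit and cell mixture cannot be told apart in these differences. Mcl1 and Bax lost their calls without either 5′ v1 library, which leaves 1 library of that kit. Bax also lost its call without 3′ v3 replicate 1 or replicate 3.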

How the results depend on the processing

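Counts of genes called rest on which libraries enter. Between kits the counts were 4480 in EL4-like, 1164 in IVA12-like, 2473 in Jurkat-like and 386 in TALL-104-like cells. Leaving out 1 library gave 1063 to 4347 genes in EL4-like, 18 to 846 in IVA12-like, 113 to 2156 in Jurkat-like and 9 to 628 in TALL-104-like cells, the lowest counts always without a 5′ v1 library, which leaves 1 library of that kit and the spread to 3′ v3 alone. The interaction, with 4036 mouse and 160 human genes, then gave 1452 to 4330 and 2 to 355. Against 3′ v3 replicates 1 and 3 alone, and 2 and 4 alone, the counts between kits were 7906 and 8210 in EL4-like, 7025 and 7711 in IVA12-like, 8210 and 9434 in Jurkat-like, and 1303 and 2247 in TALL-104-like cells. The human interaction then gave 577 and 1214 genes and the mouse interaction 6073 with replicates 2 and 4. The human line difference gave 6670 genes in all and 3231 in 5′ v1 alone, IVA12-like cells 2002 between kits by DESeq2, and no filter gave 706 in TALL-104-like cells between kits and 290 in the human interaction. Taking only 1 mixture leaves the spread between mixtures out of the error.

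Members left out by the filter of a setting are not compared there. A comparison was counted as unchanged with the same direction and side of the threshold, or the same direction alone where no adjusted p was given. For members, 532 of 613 comparisons were unchanged, 29 changed direction, and of the others 21 lost and 31 gained a call. All 29 concern differences that were not called with all libraries. Of these, Bax between kits in EL4-like cells was called in the opposite direction with replicates 1 and 3 of 3′ v3 (0.30, edgeR adjusted p = 0.0271). Without the library block the calls between lines changed among the members for BCL2L1 alone (0.51). Bax between mouse lines reversed in 5′ v1 alone (-0.12). BCL2L11 between human lines, at 0.00, turned to 0.050 with a mitochondrial share of at most 10%, 0.084 with at least 2000 UMIs per cell and 0.68 in 5′ v1 alone. Between kits in EL4-like cells, Bax turned to 0.015 with no filter, and Bcl2l1 to -0.023 with replicates 1 and 3 of 3′ v3. With replicates 2 and 4, Bcl2l1 in IVA12-like cells turned to 0.13, BCL2L11 in Jurkat-like cells to 0.047, BAX in TALL-104-like cells to -0.034 and MCL1 in the human interaction to 0.19. MCL1 there also turned to 0.029 with the mitochondrial limit and 0.13 with at least 2000 UMIs. The log2 ratio of mixtures for BCL2L11 in TALL-104-like cells turned to -0.45 with that limit. Leaving out 1 library in turn gave ranges across 0 of -0.14 to 0.20 for BCL2L11 between human lines. Between kits the ranges were -0.16 to 0.11 for Bax in EL4-like, -0.16 to 0.089 for Bcl2l1 in IVA12-like, and -0.86 to 0.95 for BCL2L1 and -1.26 to 0.25 for BCL2L11 in TALL-104-like cells. In the human interaction they were -0.34 to 0.16 for BCL2, -0.061 to 0.16 for MCL1 and -1.03 to 0.67 for BCL2L11. The cause of these changes was not tested.

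Other choices of cells or of the denominator moved the mean levels and thinned shares of 3′ v3 by less than 1 SD of its libraries, except the share of Bax in IVA12-like cells, 23.8% with the mitochondrial limit. Leaving out 1 of 4 libraries cannot move a mean by that much and says nothing here. TALL-104-like cells limit the human comparisons, with 30 to 70 cells in 5′ v1 and 3′ v2.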
